A study of Caenorhabditis elegans with 6 samples.

Results

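The str, srd and srj genes of Caenorhabditis elegans encode chemoreceptors of the Str superfamily, and their RNA was compared between the PVD and OLL neurons and whole larvae. A gene was taken as a member when a probe set of the array carried its symbol alone, as str, srd or srj followed by a number. This gave 274 genes of the 17118 with a probe set of their own, of which 177 were str, 57 srd and 40 srj genes. Another 26 probe sets list a member together with a further gene and were kept apart. RefSeq names 346 such genes in all, and the other members are not analysed here.

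PVD neurons are branched mechanical and thermal nociceptors along the body wall, and OLL are paired sensory neurons around the mouth. For the neuronal group, 3 arrays were hybridised with poly(A) RNA isolated through PAB-1, a poly(A) binding protein that carried a 3X FLAG tag and was expressed from the ser-2prom3B promoter. The reference group held 3 arrays of total RNA from whole animals. Larvae of both groups were at the L3/L4 stage and were grown at 25 °C on plates of the E. coli strain Na22, and RNA of both was amplified with the NuGEN WT-Pico system before hybridisation to Affymetrix arrays. The RNA type and the tissue changed together between the groups, so their parts in a difference cannot be told apart. Only the neuronal samples are labelled biological replicates, so the p-values describe the spread among these 6 samples, part of which may be technical.

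Nematode chemoreceptors are membrane-spanning, G protein-coupled receptors, and they form some of the largest gene families of the worm. Most of those studied with reporters are made in a few ciliated chemosensory neurons, such as the amphid neurons of the head, where they sit in the cilia and signal through G proteins, guanylate cyclases and cyclic nucleotide-gated or TRP channels. The best known relative of the str genes is odr-10, the diacetyl receptor of the AWA neurons. Members often lie in tandem clusters, and 139 of the 274 had at least 1 direct neighbour of the same 3 families in the RefSeq gene order. Of the 274, 204 lie on chromosome V, 268 are protein-coding and 6 are pseudogenes by that annotation.

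Signals were read against probe sets for Bacillus and yeast transcripts that have no target in worm RNA. The level that 95% of these 32 controls did not exceed was 2.44, 2.28 and 2.44 (log2) on PVD and OLL arrays 1, 2 and 3, and 3.09, 3.43 and 2.95 on the whole animal arrays. The controls themselves were lower on the neuronal arrays, by a median of 0.50 on the log2 scale across the 32, and all 32 were lower in group means. The arrays therefore differed in the signal of probes with nothing to bind, and each difference of a dim gene stands beside that shift. PVD and OLL replicate 3 stood apart from the other neuronal arrays in its dim probe sets, with 42 members above the level, where replicates 1 and 2 had 13 and 21.

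As a check of the labelled cells, 8 of 12 marker genes of PVD and OLL were higher in the neuronal RNA. This was 66.7%, beside 8.1% of all genes, and 0 were lower. Not called were mec-10 (0.78, limma adjusted p = 0.0587), ser-2 (0.72, 0.202), F49H12.4 (0.03, 0.945) and eat-4 (0.0064, 0.988). The receptor subunit gene deg-3 had the largest rise of all genes. It read 9.99, 9.73 and 9.87 on the neuronal arrays and 6.05, 6.05 and 4.66 on the whole animal arrays. Over all genes, 1387 were called higher and 797 lower.

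Nearly all str, srd and srj genes lay at the level of probes without a target, in the neurons and in the whole animal alike. On all 3 PVD and OLL arrays 8 of 274 members exceeded the no-target level, 2.92%, against 66.6% of all genes. On all 3 whole animal arrays 4 members did, 1.46%, against 49.9% of all genes. On no array at all did 196 members exceed it, 71.5%, whereas this held for 17.3% of all genes. A signal at this level bounds the transcript from above and does not show that it is absent, because the number of arrays and the background limit what can be seen.

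Array by array, the share of members above the level was 4.74%, 7.66% and 15.3% in PVD and OLL replicates 1, 2 and 3. In the whole animal it was 9.12%, 5.11% and 9.85%. The groups overlapped, with means of 9.25% ± 5.47 and 8.03% ± 2.55 (SD, n = 3 arrays each; exact permutation test, two-sided p = 0.9, where the smallest p that 3 against 3 arrays allow is 0.1). All genes behaved otherwise, at 71.5% to 75.8% on the neuronal arrays and 53.4% to 65.1% on the whole animal arrays, which did not overlap (exact permutation p = 0.1, the smallest possible). The level was set for each array and was lower on the neuronal arrays, which enters this contrast.

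**Figure D1:**
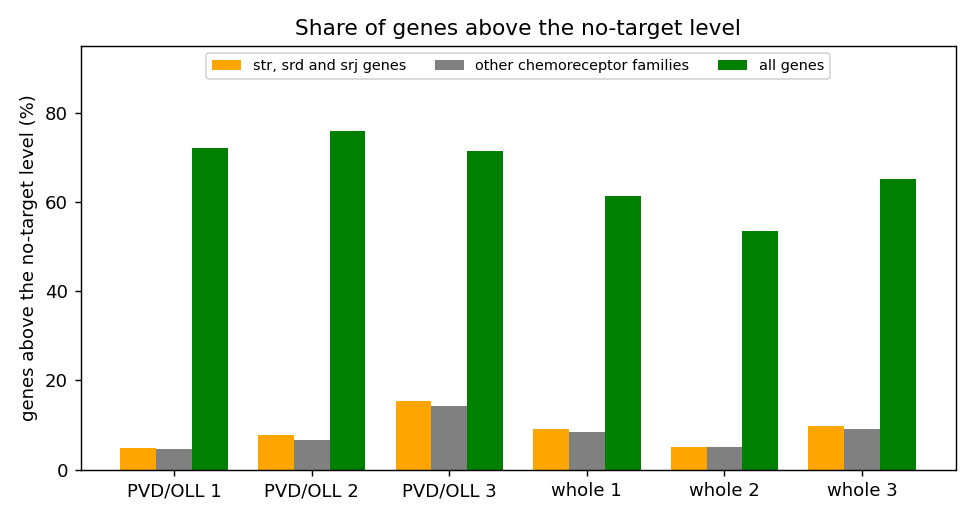
Bars give the percentage of genes whose value exceeded the no-target level of the same array, for the 274 str, srd and srj genes, the 1001 genes of other chemoreceptor families and all 17118 genes, on each of the 6 arrays. The str, srd and srj bars lie between 4.74% and 15.3%, next to those of the other families, while those of all genes lie between 53.4% and 75.8%.

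The middle of the family lay where the controls lay. The median member had values of 1.89, 1.88 and 2.09 on PVD and OLL replicates 1, 2 and 3, where the median no-target control had 2.02, 1.94 and 2.02. On the whole animal arrays the median member had 2.34, 2.38 and 2.31, and the median control 2.47, 2.55 and 2.30. Members below the median control made up between 40.5% and 72.3% of the family on the 6 arrays. No array carried a member above 5 on the log2 scale.

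**Figure D2:**
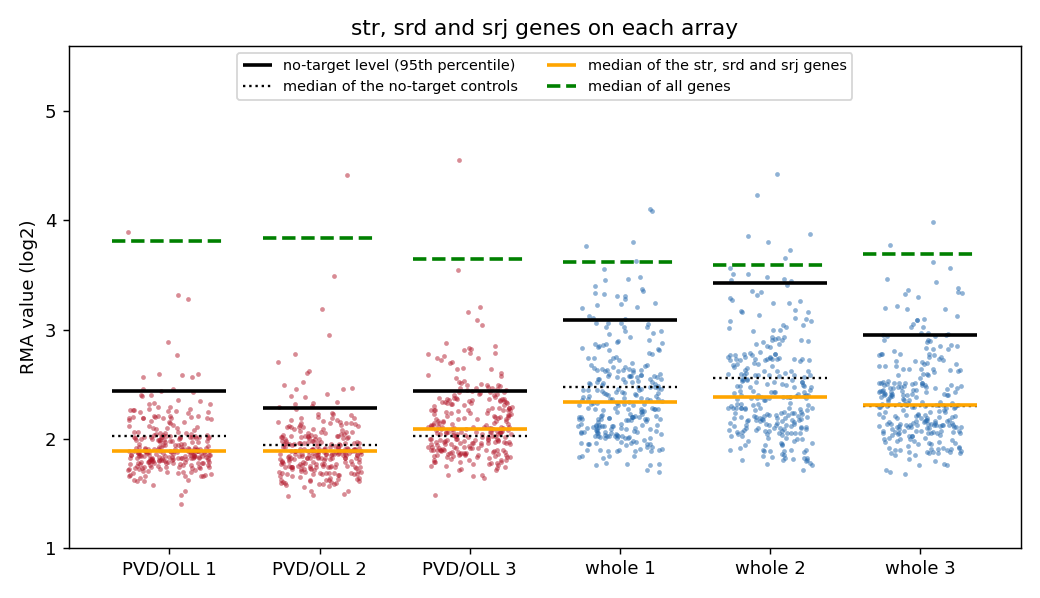
Each point is 1 of the 274 str, srd and srj genes on 1 array, at its RMA value (log2), in red for PVD and OLL and blue for whole animal arrays. The orange line, the median member, runs along the dotted line, the median no-target control, on every array, at 1.88 to 2.09 in the neuronal group and 2.31 to 2.38 in the whole animal, and most points lie under the black no-target level.

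Few members of any of the 3 families lay above the level. Among neuronal arrays, 5 of 177 str, 1 of 57 srd and 2 of 40 srj genes exceeded the level on all 3 arrays, and in the whole animal 2, 1 and 1 did. The share above it on PVD and OLL replicate 3 was 15.3% for str, 10.5% for srd and 22.5% for srj genes, and differences between the families were not tested. The 1001 genes of other chemoreceptor families gave 29 and 15, or 2.90% and 1.499%, close to the shares of the str, srd and srj genes. Of the 6 pseudogenes, 0 exceeded the level on all 3 arrays of either group. All 8 members above it in the neurons and all 4 above it in the whole animal lie on chromosome V, which holds 204 of the 274. The 26 probe sets shared with another gene added 0 in either group.

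How many members count as above depended on where the level was set. With the highest control of each array in place of the 95th percentile, 3 members remained above in the neurons and 0 in the whole animal. With 1 common level for all arrays, the mean of the 6, there were 1 and 12. The order of the groups therefore followed the level, and no group is described here as having more members above background. On PVD and OLL replicate 3, 39 members lay within 0.1 of the level, and of the 40 members above it on 1 neuronal array, 30 were above it on replicate 3.

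The member that stood clearest of the controls in the neurons was srj-14 (C03G6.3), an srj receptor gene. It had 3.90, 4.42 and 4.56 on the neuronal arrays and 3.80, 3.11 and 3.62 on the whole animal arrays, so that every neuronal value lay above every whole animal value. On the neuronal arrays it exceeded the no-target level by 1.46, 2.14 and 2.12 on the log2 scale. The difference was 0.78 ± 0.27 (log2, SE, n = 3 arrays per group) and did not pass the limma test (adjusted p = 0.0949), and over the alternatives that p ranged from 0.000465, with arrays centred on the bioB and bioC spikes, to 0.258 with cyclic loess. With arrays centred on the no-target controls the difference was 1.28 (adjusted p = 0.0182), and with array weights 0.82 (adjusted p = 0.0407). A further probe set of srj-14 had 2.97, 2.81 and 3.05 on the neuronal arrays and 3.08, 2.28 and 2.64 on the whole animal arrays, which overlapped (difference 0.28, adjusted p = 0.459).

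Other members reached the level in the neurons with small margins. srj-29 had 2.76, 2.78 and 2.77 on the neuronal arrays and 2.62, 3.18 and 2.58 on the whole animal arrays, a difference of -0.02 ± 0.22. str-131 had 2.59, 2.52 and 3.54 against 2.17, 2.63 and 2.82, a difference of 0.35 ± 0.33. Both exceeded the level on all 3 neuronal arrays and on no whole animal array, although neither differed by the limma test (adjusted p = 0.961 and 0.481) and their arrays overlapped between groups. The higher level of the whole animal arrays enters that contrast. Of the other 5 members above the level on all neuronal arrays, str-121 was the only member of the 274 to exceed it on all 6 arrays, and the rest were srd-32, str-69, str-254 and str-262, named after their values were seen.

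The receptor genes str-31 and str-7 were split within the neuronal group. str-31 had 3.28 and 3.49 on neuronal replicates 1 and 2 but 2.0002 on the third, against 3.06, 2.74 and 2.89 in the whole animal. str-7 had 3.32, 3.19 and 2.11 against 3.33, 2.73 and 2.201. In both genes replicate 3 lay below its no-target level and replicates 1 and 2 above theirs. Their differences of 0.03 ± 0.39 and 0.12 ± 0.40 were smaller than their errors (limma adjusted p = 0.963 and 0.858).

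Receptors with known sites of expression gave no signal above the level on any of the 6 arrays. str-1, a marker of the AWB olfactory neurons, had 1.48, 1.58 and 1.85 on the neuronal arrays and 1.84, 1.78 and 1.81 on the whole animal arrays. str-2, made in 1 of the paired AWC olfactory neurons, had 1.40, 1.48 and 1.86 against 1.90, 2.35 and 2.71. str-3, a marker of the ASI neurons, had 1.98, 1.75 and 1.89 against 2.195, 2.90 and 2.04. The groups overlapped for str-1, and for str-2 and str-3 every neuronal value lay under every whole animal value, with differences of -0.74 and -0.51 and all values below the no-target level.

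str-217, which is needed for the response to the repellent DEET, had 1.78, 1.89 and 2.41 on the neuronal arrays and 2.56, 2.50 and 2.51 on the whole animal arrays. srd-1, which acts in the AWA neurons of males in sensing a volatile sex pheromone, had 2.21, 1.98 and 2.21 against 2.58, 3.13 and 2.11. None of these 5 genes was called (limma adjusted p between 0.102 and 0.549), but some alternatives called 3 of them lower: str-2 with trend and robust eBayes (adjusted p = 0.042) and with array weights (0.0306), str-217 with array weights (0.0319) and without both arrays numbered 3 (0.043), and srd-1 with array weights (0.0458). The diacetyl receptor gene odr-10, which is no member by its symbol, had 2.49, 3.26 and 3.70 on the neuronal arrays and 3.26, 3.93 and 3.05 on the whole animal arrays, above the level on all 6 and with no difference called (-0.26 ± 0.36, adjusted p = 0.639).

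No str, srd or srj gene was called higher in the PVD and OLL RNA, 0 of 274, while limma called 8.1% of all genes higher. Of the 2961 genes above the no-target level on no array, 0 were called higher as well. That set was picked by levels that were lower on the neuronal arrays, which limits higher calls in it beforehand. At an unadjusted p under 0.05, 1 member was higher, and limma was the only tool run. In the other direction 13 members were called lower, 4.74%, against 4.66% of all genes, so in this fit the share of lower calls was near the background. Where no array exceeded the level, 1.53% of the members and 1.86% of all such genes were called lower. Other settings moved these counts, and with array weights 80 members and 13.3% of all genes were called lower. By family the 13 were 6 of 177 str, 4 of 57 srd and 3 of 40 srj genes. The other chemoreceptor families had 40 of 1001 lower and 2 higher. The median difference of the 274 members was -0.39 on the log2 scale, beside -0.07 for all genes, -0.37 for the other families and -0.50 for the no-target controls. Fewer cells of a type and less RNA per cell cannot be told apart in these pooled samples.

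Most members had values slightly lower on the neuronal arrays, although only 13 passed the test. Differences were below 0 for 261 of 274 members, 95.3%, where 54.7% of all genes and 93.9% of the genes above the no-target level on no array were below 0. The neuronal arrays lay wholly under the whole animal arrays for 126, 45.99%, against 21.9% of all genes. Among those 2961 genes above the level on no array the corresponding share was 45.4% and the median difference -0.31. That set includes 196 of the members. It was picked by levels that were lower on the neuronal arrays, which in itself favours differences below 0. Arrays lay apart in the other direction for 2 members, 0.73%, against 18.4% of all genes; they were srj-14 and str-220, the second below the level on all 6 arrays and named after its values were seen.

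The direction rested on the scale of the arrays. When each array was centred on its no-target controls the median member difference became 0.11, and 2 members were called lower and 2 higher, in place of 13 and 0. After centring on the bioB and bioC hybridisation spikes it became 0.85, with 0 lower and 35 higher, among them srj-14, srj-29, str-131, str-31 and str-7. Across all genes the same 2 choices moved the median from -0.07 to 0.43 and 1.17, and the share of calls that were higher from 63.5% to 94.6% and 99.4%. They called 25.7% and 53.6% of all genes higher, larger shares than among the members, where 2 and 35 of 274 were called higher. Directions below are relative to the deposited scale.

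**Figure D3:**
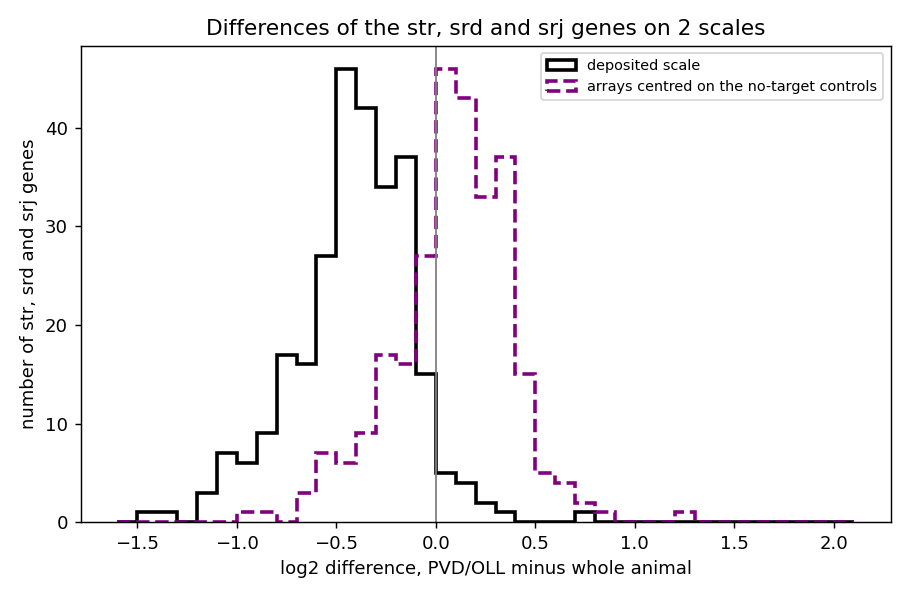
Histogram of the log2 difference, PVD and OLL minus whole animal, of the 274 str, srd and srj genes, on the deposited scale (solid black) and with arrays centred on the no-target controls (dashed purple). The solid outline is centred near -0.39 and the dashed outline near 0.11, and srj-14 lies at the right end of each, at 0.78 and 1.28.

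The member whose difference held best was str-112 (F10D2.4), a str receptor gene. It had 1.78, 2.06 and 2.19 on PVD and OLL arrays 1, 2 and 3, each below the no-target level, and 3.47, 3.45 and 3.19 on the whole animal arrays, each above it. On whole animal array 2 the margin was narrow, over a level of 3.43. All 3 whole animal values lay under the highest control of their arrays, at 3.51, 4.48 and 3.70. The groups did not overlap. The difference was -1.36 ± 0.20 (log2, SE, n = 3 arrays per group; limma adjusted p = 0.00864). With the neurons set at the no-target level, str-112 was at least 1.98-fold lower there on the deposited scale. That fold, like those below, leaves the higher control signal of the whole animal arrays uncorrected, so it is no bound on other scales. The call held in all 6 fits that dropped a single array (highest adjusted p 0.0445) and with centring on the no-target controls (-0.86, adjusted p = 0.0215), but not with centring on bioB and bioC (-0.12, adjusted p = 0.825).

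srj-55 (Y45G12A.1) showed the largest fall of the called members, and it varied more. Its values were 2.39, 2.22 and 2.32 on the neuronal arrays, below the level, and 4.09, 4.23 and 2.97 on whole animal arrays 1, 2 and 3. Whole animal replicate 3 exceeded its own level narrowly, while the others lay far above theirs. The difference of -1.45 ± 0.34 had an adjusted p of 0.0319, and the gene was at least 2.60-fold lower in the neurons on the deposited scale. Its call ended in 5 of 6 fits that dropped a single array (highest adjusted p 0.112) and held with centring on the no-target controls (-0.95, adjusted p = 0.0475).

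srj-8 was split in the same way, with 2.03, 1.85 and 1.84 on the neuronal arrays and 3.45, 3.45 and 2.40 on the whole animal arrays. The last of these lay below the level. Its difference was -1.20 ± 0.31 (limma adjusted p = 0.043). The fold computed as above was 1.64 on the deposited scale. The whole animal mean of srj-8 lay below the mean level of its group, so this fold is no bound on the transcript. srj-57, next to srj-55 in the gene order, owed its whole animal mean to 1 array: it had 2.87, 4.42 and 2.82 there and 2.44, 2.17 and 2.15 in the neurons, and it was not called (-1.12 ± 0.42, adjusted p = 0.118) except with array weights (adjusted p = 0.0289).

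srd-33 was above the level on all 3 whole animal arrays and on 1 neuronal array. It had 2.32, 2.13 and 2.57 on the neuronal arrays and 3.48, 3.87 and 3.08 on the whole animal arrays, which did not overlap (-1.14 ± 0.26, adjusted p = 0.0283). str-46 was near the level in both groups, with 2.21, 2.39 and 2.44 against 3.20, 3.34 and 3.56, and differed by -1.02 ± 0.20 (adjusted p = 0.0173). Dropping single arrays ended its call in 2 of 6 fits, after str-112 the fewest among the 13. str-121, above the level on all arrays, had 2.56, 2.95 and 2.45 against 3.33, 3.85 and 3.30 and was not called (-0.84 ± 0.24, adjusted p = 0.0583), although it was with median centring (adjusted p = 0.0306) and with array weights (0.0347).

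The other called members lay close to background in both groups. str-229 (-1.06), srj-4 (-1.07), str-103 (-1.03) and str-20 (-0.996) exceeded the level on 1 whole animal array each and srd-30 (-0.93) on 2, all with the neurons below it on every array. Folds computed in the same way on the deposited scale ran, for these 5, from 1.47-fold lower for str-20 to 1.76-fold lower for srd-30. Where the whole animal mean lay below the mean level of its group, as for str-20, such a fold is no bound on the transcript. srd-69 (-0.88), str-199 (-0.87) and srd-63 (-0.68) stayed below the level on all 6 arrays, so no fold is given for them. Adjusted p-values of these 8 genes in the limma fit lay between 0.0233 and 0.0411. srd-30 and str-199 also have a probe set shared with a further gene, and neither shared probe set was called. These gave -0.08 and -0.37 (limma adjusted p = 0.771 and 0.298), with arrays that overlapped between the groups.

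**Figure D4:**
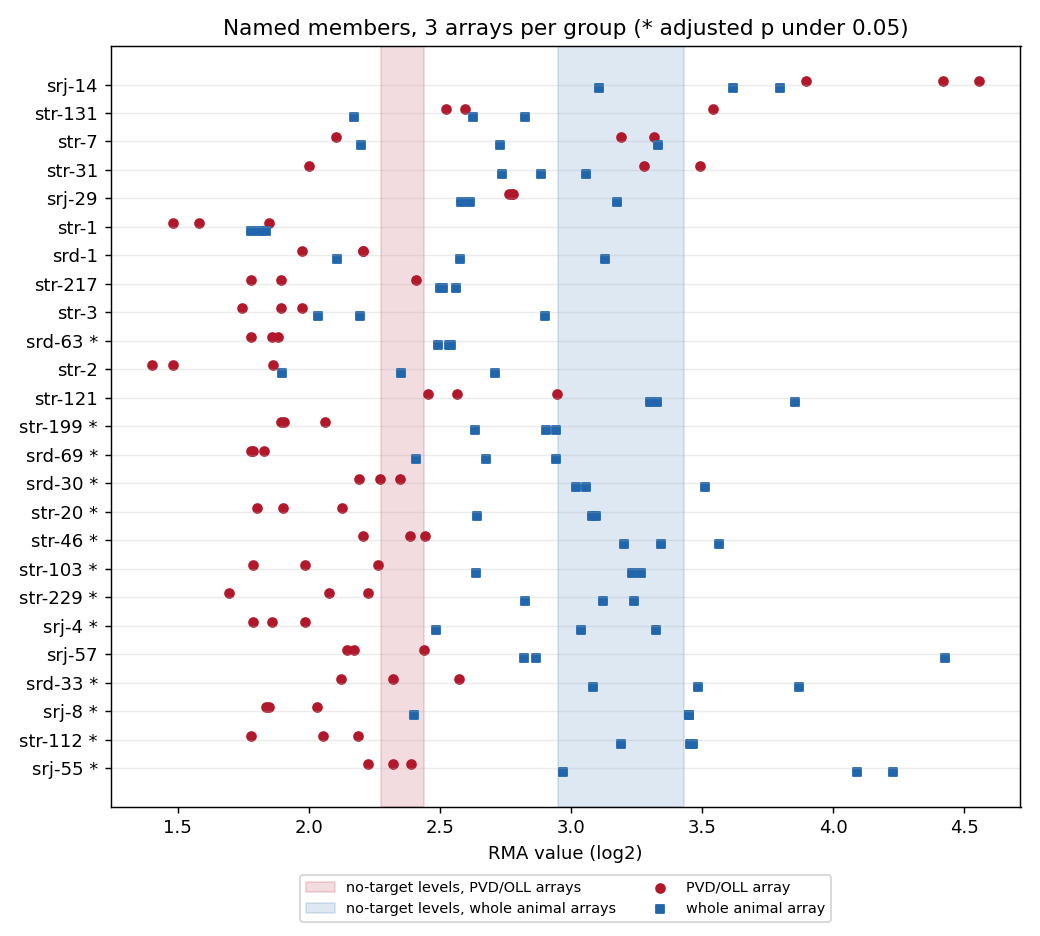
RMA values (log2) of the named str, srd and srj genes on each of the 3 PVD and OLL arrays (red circles) and 3 whole animal arrays (blue squares), ordered by their difference; an asterisk marks an adjusted p under 0.05, and shaded bands span the no-target levels of each group's arrays. srj-14, at 3.90 to 4.56, is the one gene whose neuronal values all lie to the right of both bands, and str-112 and srj-55 at the bottom have neuronal values of at most 2.39 and whole animal values of 2.97 to 4.23.

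The count of 13 depended on single arrays, as did the count over all genes. It was 1 without PVD and OLL replicate 1, 1 without replicate 2 and 10 without replicate 3. Without whole animal replicates 1, 2 and 3 it was 6, 2 and 25. Lower calls over all genes, 4.66% with all arrays, made up 1.31%, 0.97%, 3.42%, 2.19%, 2.48% and 5.91% in these runs, in the same order. Of the 13 called genes 1, str-112, kept its call in every such run, and all 13 stayed lower in all of them. Of the 13, 12 lie on chromosome V, which holds 204 of the 274 members, and 0 of the 13 had another called member next to it.

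A gene with more than 1 probe set of its own was rare here, with 3 of the 274, leaving aside probe sets shared with another gene. For str-16, whose main probe set gave 2.26, 2.32 and 2.70 on the neuronal arrays and 3.20, 3.66 and 2.90 on the whole animal arrays (-0.83, limma adjusted p = 0.0701), the other probe set was called lower (-1.41, adjusted p = 0.0436). Those of str-159 gave -0.56 and -1.08 with neither called (adjusted p = 0.213 and 0.103). Both genes are named for having a second probe set.

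Of 43 measured signalling genes that work with chemoreceptors, 29 exceeded the level on all 3 neuronal arrays, 67.4% beside 66.6% of all genes. On all 3 whole animal arrays 16 did, 37.2% beside 49.9% of all genes. Of the 43, 5 rose in the PVD and OLL RNA, 11.6% beside 8.1% of all genes, and 0 fell, beside 4.66%. The list thus lay near all genes on the neuronal arrays and below them in the whole animal, and its median difference was 0.20 beside -0.07. They were gpa-7, a G protein alpha subunit gene, at 1.58 ± 0.22 (limma adjusted p = 0.00761), dpy-23, a clathrin adaptor subunit gene, at 1.52 ± 0.20, pde-2, a phosphodiesterase gene, at 1.16 ± 0.26, odr-4, needed to bring odorant receptors to cilia, at 0.997 ± 0.26, and gpb-2, a G protein beta subunit gene, at 0.93 ± 0.22. odr-4 had 7.95, 7.23 and 7.78 on the neuronal arrays and 6.57, 6.94 and 6.44 on the whole animal arrays, which did not overlap.

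Of the measured channel and cyclase genes, 0 of 5 and 0 of 4 were called. The channel subunit gene tax-4 had 2.55, 2.56 and 2.38 on the neuronal arrays and 3.40, 4.04 and 2.90 on the whole animal arrays (-0.95 ± 0.30, limma adjusted p = 0.0738), and the olfactory cyclase gene odr-1 had 3.00, 3.07 and 2.95 against 3.94, 3.32 and 3.63 (-0.62 ± 0.22, adjusted p = 0.096). Of the 29 markers of amphid and other chemosensory neurons, which include str-1, str-2 and str-3, 3 were higher and 0 lower, or 10.3% higher beside 8.1% of all genes. On all 3 neuronal arrays 11 exceeded the level, 37.9% beside 66.6% of all genes, and on all 3 whole animal arrays 4 did, 13.8% beside 49.9%. Their mean over the list was 2.68 to 2.84 on the neuronal arrays and 2.71 to 2.89 on the whole animal arrays. Those that rose were the homeobox genes ceh-36 and ceh-37 and the insulin-like gene daf-28. The part of other neurons' RNA in the values of the receptors was not tested.

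Muscle, intestine, sperm and hypodermis markers were detected in both groups, each of the 15 measured genes above the level on all 6 arrays. Of these, 3 were higher and 5 lower in the neuronal RNA, 20% and 33.3% beside 8.1% and 4.66% of all genes. The tissues differed: of 4 muscle markers 1 was higher (myo-3) and 0 lower. Of 4 hypodermis markers 2 were higher (rol-6 and bli-1) and 1 lower (col-19). Of 4 intestine markers 0 were higher and 2 lower (vit-2 and vit-6), and of 3 sperm markers 0 and 2 (msp-3 and msp-142). Of 3 pharynx markers, 1 was higher and 0 lower. It was pha-4, with 6.85, 6.66 and 7.23 on the neuronal arrays and 2.28, 4.02 and 4.74 on the whole animal arrays (3.23 ± 0.57, limma adjusted p = 0.0134). The pharynx marker ceh-22 exceeded the level on 2 neuronal arrays and 1 whole animal array. The muscle myosin gene unc-54 read 10.99, 10.96 and 10.09 on the neuronal arrays and 10.43, 10.35 and 9.85 on the whole animal arrays. Whole animal replicate 3 stood apart from replicates 1 and 2 in some markers. It read higher in vit-2 (9.98 against 7.06 and 7.15) and col-19 (7.96 against 5.94 and 5.27). In bli-1 it read lower (5.48 against 7.46 and 7.33), and the cause was not tested.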

How the data were processed

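The authors deposited 1 log2 value for each probe set on each array, made with RMA, per the submitters' processing notes. RMA corrects background, quantile-normalizes the arrays and summarises the probes, which can compress differences of dim probe sets. No version of it is given in the sources used here, and the log2 base is read from the range of the values, 1.21 to 13.9. Scanner files were not used here, so no other background correction was tried and no scan batch was examined.

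Of 22625 probe sets, 77 are controls and 22548 were tested. Symbols came from the array's annotation, updated through RefSeq (assembly WBcel235, used for names, chromosomes and gene order only), and 20701 of 20766 probe sets with 1 gene took their name from it. Each of 17118 genes was represented by its probe set with the highest mean over 6 arrays. No sample column was left unused.

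The no-target level of an array is the 95th percentile of its 32 control probe sets for Bacillus and yeast transcripts. Differences are PVD and OLL minus whole animal, tested two-sided with limma 3.58.1 (lmFit, eBayes; R 4.3.3) on all 22548 probe sets, and p-values were adjusted by Benjamini-Hochberg over them. A gene was called at an adjusted p under 0.05. Errors beside differences are moderated standard errors (SE). Where all arrays of 1 group lay below their levels, a fold is given as "at least", computed with that group at its levels. The mean of the other group is used as deposited, with its own background uncorrected, even where it lay below the mean level of that group. Such a fold is therefore a bound on the deposited scale only. Percentages of array shares were compared with an exact permutation test.

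Named genes were chosen by a written rule: str-1, str-2, str-3, str-217 and srd-1 in every case, all called genes, the 5 with the highest mean in each group, and those above the level on all 3 arrays of 1 group and on no array of the other. It also takes odr-10 and the called genes of a list of chemosensory signalling genes. Any other gene named was chosen after its values were seen. The members and lists were chosen with earlier results of these data known.

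The code was tested on simulated data made for this comparison, 22548 probe sets with log2 changes of 1, -1, 2 and -2 put into 50 each. It recovered 3, 7, 30 and 30 of these, with 5 false calls. In the deposited data 2099 probe sets were called higher and 964 lower. Adjusted p-values depend on how many probe sets differ, so these recoveries do not measure the power of the reported fit.

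Normalization, centring, filters, probe set choice, the variance model, array weights, the replicate number as a block and single arrays were varied, and so were the definitions of the no-target level.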

Additional observations from a re-analysis of the deposited data

How the results depend on the processing

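For the 274 str, srd and srj genes, the median difference of -0.39 was -0.19 with a second quantile normalization, -0.14 with cyclic loess, -0.60 with median centring, 0.85 with bioB and bioC centring and 0.11 with no-target centring. It was -0.75 without the dimmest 25% of probe sets, where 26 members remained. Higher calls, 0 as reported, numbered 35 with bioB and bioC centring, 2 with no-target centring and 1 with array weights. Over all genes, higher calls made up 53.6%, 25.7% and 16.4% in these settings. Lower calls, 13 as reported, numbered 2, 5, 30, 0 and 2 under the 5 scalings in the order above, 5 without the dimmest 25%, 36 with trend and robust eBayes, 80 with array weights and 49 without both arrays numbered 3. Over all genes, lower calls made up 4.76%, 5.13%, 9.38%, 0.32% and 1.45% under the 5 scalings. In the other 4 settings they made up 5.89%, 6.53%, 13.3% and 8.79% of all genes, in the same order. With 1 array left out, lower calls among the members ranged from 1 to 25, beside 0.97% to 5.91% of all genes. Of the 13 called genes, 2, 5, 0 and 2 kept their calls under quantile normalization, cyclic loess, bioB and bioC centring and no-target centring, 5 without the dimmest 25%, and 1 to 12 with 1 array left out. The cause of these changes was not tested.

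With the replicate number as a block, 3 members were called lower, all 3 of them among the 13, beside 1.93% of all genes. Same-numbered arrays did not deviate together (correlations -0.051, -0.065 and -0.104), so the numbers were not taken as pairs, and no array correlated best with its own number. Under bioB and bioC centring 11 called genes changed sign, to 0.31 (srd-30), 0.10 (srd-33), 0.56 (srd-63), 0.36 (srd-69), 0.17 (srj-4), 0.0457 (srj-8), 0.21 (str-103), 0.37 (str-199), 0.24 (str-20), 0.18 (str-229) and 0.22 (str-46), none called, and srj-29, str-131, str-31 and str-7 became called higher at 1.22, 1.59, 1.27 and 1.36 (adjusted p = 0.0335, 0.0061, 0.0272 and 0.0187).

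Members above the level on all neuronal and whole animal arrays, 8 and 4 as reported, numbered 3 and 0 with the highest control as level, 1 and 12 with the mean of the 6 levels, 1 and 0 with the highest of them, 54 and 49 when 1 array sufficed, and 17 and 13 by group means. At the 90th percentile they were 11 and 9. With 1 whole animal array left out there were 5 to 9. Both the signal over background and the choice of scaling and test limit what these values show for the family.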
